A study of Mus musculus with 5 samples.

Results

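Cell adhesion genes were followed in CD4 T cells through 9 genes: Cd44, the integrin alpha subunit genes Itga4, Itga6, Itgae and Itgal, the integrin beta subunit genes Itgb1, Itgb2 and Itgb7, and Selplg. The genes were taken by name, and every probe set that the platform's annotation pairs with one of these symbols alone was kept apart. This gave 24 probe sets for the 9 genes, out of 34945 probe sets for 18193 genes on the array. The 5 groups, of 1 Affymetrix mouse array each, held memory Th1 cells, TOFA effector Th1 cells, Rap effector Th1 cells, control effector Th1 cells and naive CD4 T cells. All came from BALB/c mouse spleen. TOFA inhibits acetyl-CoA carboxylase, the enzyme that commits acetyl-CoA to fatty acid synthesis, while Rap is an agent or condition that the labels do not spell out. The effector cells spent 5 days in Th1 culture, in which IL-2 was at 15 ng/ml and the Th1-driving cytokine IL-12 at 10 ng/ml. The labels repeat this culture for the memory and naive samples too, although their source is given as primary cells, and they say neither how memory cells were obtained nor how cells were purified. No allele or deletion is named for any group.

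Integrins are cell surface receptors built of an alpha and a beta subunit, and a T cell reaches and holds its place in a tissue through them. The Itgal and Itgb2 products pair as LFA-1, which binds ICAMs on vessel walls and on antigen-presenting cells. The Itga4 product pairs with that of Itgb1 as VLA-4, which binds VCAM-1, or with that of Itgb7 as the gut homing receptor that binds MAdCAM-1. The Itgae product pairs with that of Itgb7 and binds E-cadherin on epithelium, and that of Itga6 pairs with that of Itgb1 as a laminin receptor. Cd44 encodes a hyaluronan receptor and is the usual marker of antigen-experienced T cells. Selplg encodes PSGL-1, the ligand on leukocytes that selectins bind once it carries the right sugars.

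Promoter sequences for 4 of the 9 genes, Cd44, Itga4, Itgb1 and Itgb7, were found in RefSeq's table for GRCm38.p6. No promoter was found there for the other genes, so the choice of these 4 does not rest on their signals. Each sequence is the 250 bases before the gene's start, read 5′ to 3′ on the gene's strand. Capitals mark matches, on either strand, to the motif letters GGTGTGA (T-box factors such as T-bet), CACCC (KLF factors), GGGCGG (Sp1), TGTGGT (RUNX), TGANTCA (AP-1) and TGTTTAC (FOXO). The windows lie at chr2:79255176-79255425 on the plus strand for Itga4, chr15:102231936-102232185 on the minus strand for Itgb7, chr2:102901666-102901915 on the minus strand for Cd44 and chr8:128685404-128685653 on the plus strand for Itgb1.
Itga4: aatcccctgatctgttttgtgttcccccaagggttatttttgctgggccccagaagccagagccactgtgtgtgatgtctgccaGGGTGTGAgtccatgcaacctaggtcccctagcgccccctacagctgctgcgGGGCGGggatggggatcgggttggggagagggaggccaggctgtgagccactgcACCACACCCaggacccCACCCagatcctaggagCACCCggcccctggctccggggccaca
Itgb7: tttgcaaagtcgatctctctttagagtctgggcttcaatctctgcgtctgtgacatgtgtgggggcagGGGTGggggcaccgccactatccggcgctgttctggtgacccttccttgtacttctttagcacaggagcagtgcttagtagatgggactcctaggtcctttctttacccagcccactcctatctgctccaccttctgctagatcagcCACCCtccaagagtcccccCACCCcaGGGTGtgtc
Cd44: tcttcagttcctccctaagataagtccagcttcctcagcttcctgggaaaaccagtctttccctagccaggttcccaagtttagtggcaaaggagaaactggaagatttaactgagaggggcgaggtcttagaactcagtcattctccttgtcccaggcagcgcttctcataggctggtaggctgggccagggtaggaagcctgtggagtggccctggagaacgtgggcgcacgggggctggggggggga
Itgb1: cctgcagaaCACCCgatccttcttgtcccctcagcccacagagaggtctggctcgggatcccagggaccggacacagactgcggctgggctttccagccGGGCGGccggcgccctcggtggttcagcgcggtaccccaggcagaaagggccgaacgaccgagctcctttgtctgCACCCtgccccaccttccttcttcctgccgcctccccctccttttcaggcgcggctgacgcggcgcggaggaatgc

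The Itga4 window held 1 match to GGTGTGA, which starts 165 bases before the gene's start and shares letters with a CACCC match on the other strand. It also held 4 matches to CACCC in all, 1 to GGGCGG and 1 to TGTGGT, the last overlapping a CACCC match. The Itgb7 window held 4 CACCC matches, the Itgb1 window 2 CACCC matches and 1 GGGCGG match, and the Cd44 window no match to any of the 6. Among 32851 promoter windows of the same length, 3.33% held GGTGTGA, 52.0% CACCC, 32.7% GGGCGG, 14.0% TGTGGT, 6.75% TGANTCA and 3.17% TGTTTAC. These are matches of letters, not measured binding.

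Values are quantile normalized signals, an arbitrary linear brightness that is comparable between arrays for the same probe set. Signals under 43.4, the 40th percentile, were raised to that floor, and a probe set at the floor on both arrays was not compared. A difference was counted once it reached 2-fold in either direction, which is 1 on the log2 scale. With 1 array a group there is no replicate, no test and no p-value, so each statement is about these arrays. Precision is limited by the number of arrays. As an internal measure of error, the SD of log2 differences among probe sets of a common gene is given, which leaves out whatever differs between whole cultures or arrays. It was 0.57 for control effector over naive, 0.33 for TOFA over control, 0.34 for Rap over control, 0.30 for TOFA over Rap, 0.43 for memory over naive and 0.55 for memory over control.

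All 10 T cell markers were above the floor on every array, and Cd4 had signals of 483 in memory, 536 in TOFA, 525 in Rap, 628 in control effector and 897 in naive cells. RNA of other spleen cells differed widely between arrays. The 10 myeloid markers summed to 95025 in memory, 632 in TOFA, 327 in Rap, 321 in control effector and 6331 in naive cells, and 10, 6, 2, 3 and 9 of them were above the floor. The 9 B cell markers summed to 51915 in memory, 2387 in TOFA, 2730 in Rap, 2000.2 in control effector and 33248 in naive cells. The 7 dendritic cell markers summed to 45045 in memory cells, between 1043 and 2229 in the effector arrays and to 7835 in naive cells. H2-Aa (23624), H2-Ab1 (10952) and Cd74 (9965) held most of that memory sum. Zbtb46, Xcr1 and Siglech were at 298, 76.1 and 92.2 in memory cells, and Flt3 was under the floor there (37.2). For all 3 of these lists the memory array was highest and the naive array next. The 4 platelet markers summed to 6643 in memory cells and to between 141 and 185 on the other arrays, and the 3 erythroid markers to 858 against 61.3 to 108. The 5 NK and CD8 markers summed to between 1026 and 2404. In bulk RNA, fewer cells of a type and less RNA per cell cannot be told apart.

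**Figure D1:**
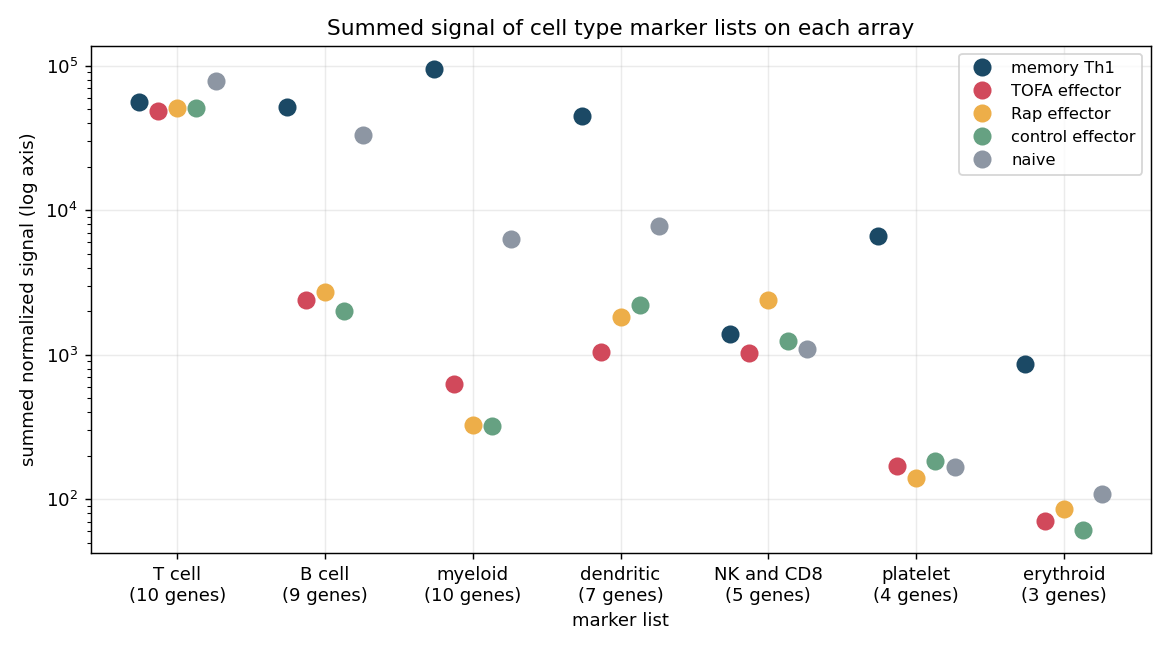
Summed normalized signal (log axis) of 7 cell type marker lists, with 1 point for each array. The T cell lists lie close together, from 48988 to 78737, while the memory array stands highest for B cell, myeloid, dendritic, platelet and erythroid markers (myeloid sum 95025 against 321 in control effector and 6331 in naive cells).

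Across the 5 arrays the 9 genes showed 3 patterns on their brightest probe sets. Itga4, Itgb7, Itgae and Itga6 were highest in naive cells and at least 2-fold lower in control effector cells. Cd44 and Itgb1 were lowest in naive cells, intermediate in the 3 effector arrays and highest in memory cells. Itgal, Itgb2 and Selplg varied least, by 1.59-fold, 2.23-fold and 1.62-fold from the highest to the lowest array, against 11.8-fold for Itga4. Among the TOFA, Rap and control effector arrays, the range of each gene's brightest probe set lay between 1.06-fold for Cd44 and 1.66-fold for Itgb7, apart from Itgae, whose signals there were near or below the floor. Between neighbours in the order of arrays, 11 of the 32 steps over the 8 genes other than Itgae were beyond the SD between probe sets for that pair of arrays. The mark is 1 SD, so a step beyond it can still be error. The same count was not made over all genes, so 11 cannot be called many or few.

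From the highest array to the lowest, Cd44 ran from memory through TOFA, control effector and Rap to naive cells, and only its first and last steps, 3.31-fold and 1.60-fold, were beyond that SD. Itgb1 ran from memory through Rap, control effector and TOFA to naive cells, again with its first and last steps (2.28-fold and 1.76-fold) beyond it. Itga4 and Itgb7 both ran from naive through memory, Rap and control effector to TOFA cells. For Itga4 the step from memory to Rap cells alone, 8.14-fold, was beyond the SD, and for Itgb7 all steps but the first, 2.19-fold, 1.28-fold and 1.30-fold. Selplg ran in the same order and Itgal from Rap through memory, naive and TOFA to control effector cells, with no step beyond the SD in either. Itga6 had its steps from naive to memory (2.08-fold) and from Rap to TOFA cells (1.47-fold) beyond it, and Itgb2 its step from memory to naive cells (1.37-fold).

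**Figure D2:**
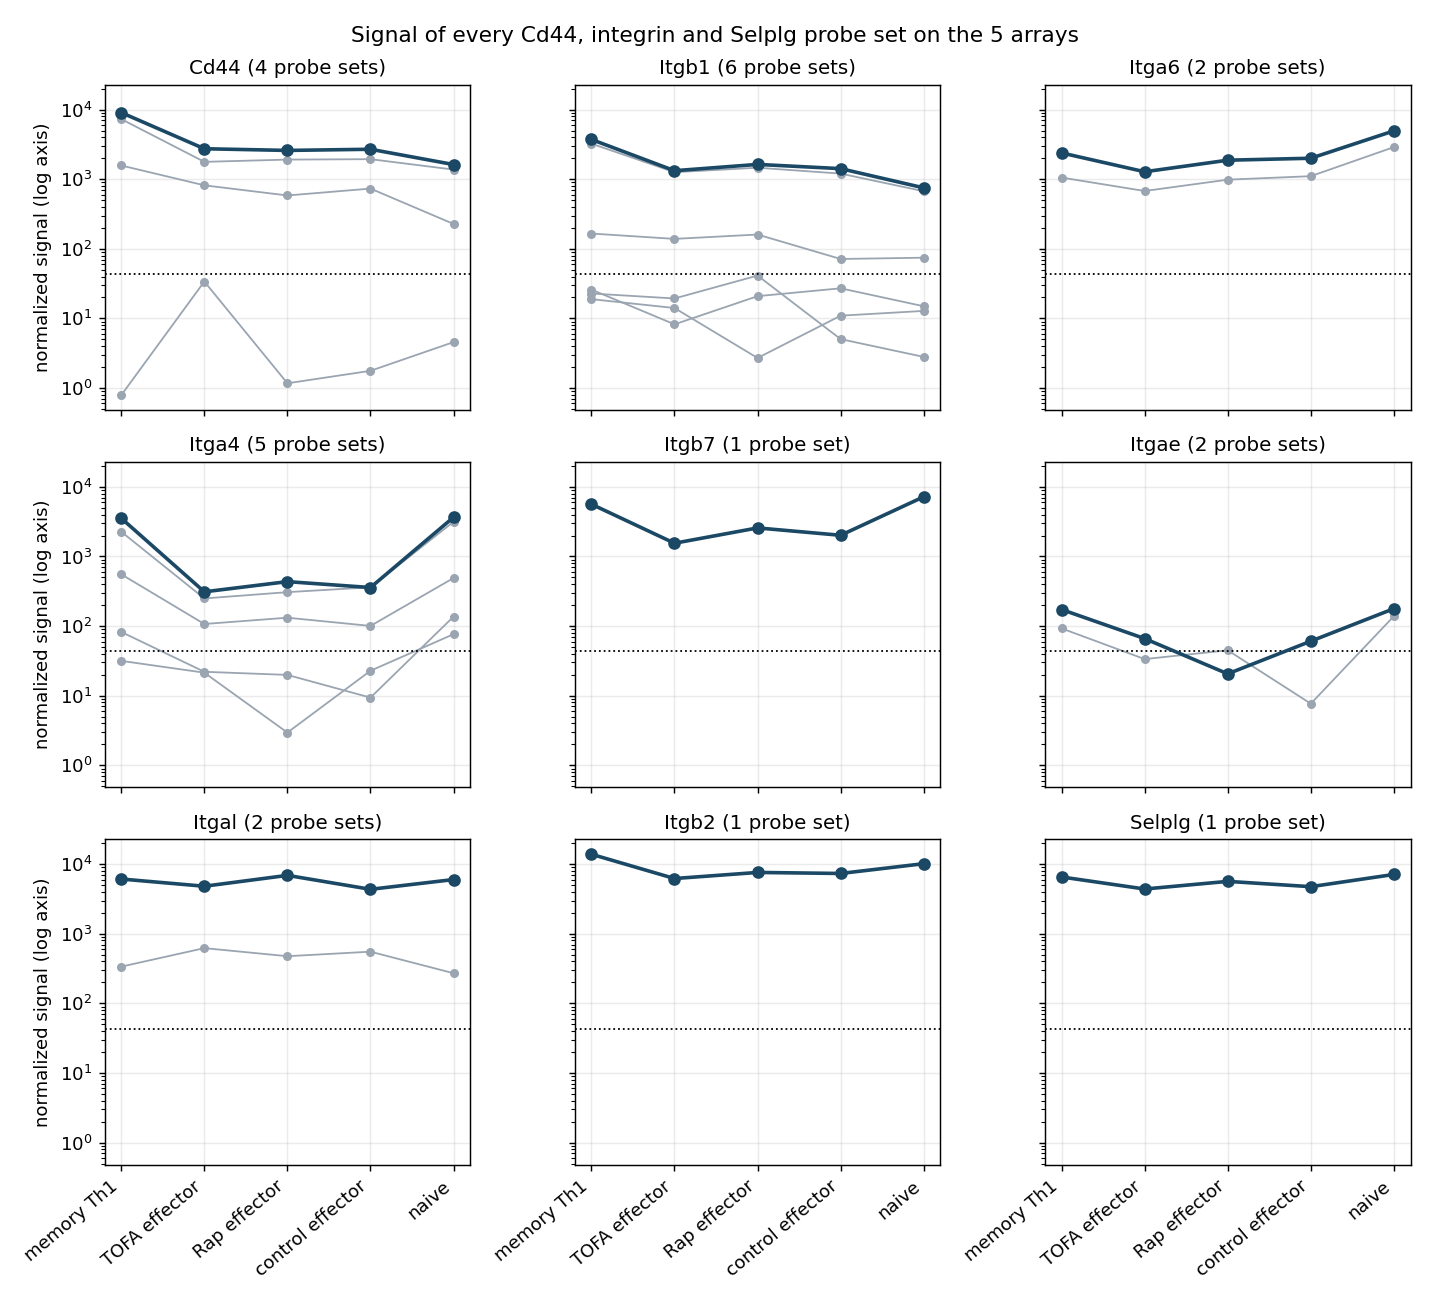
Normalized signal (log axis) of each probe set of the 9 genes on the memory Th1, TOFA effector, Rap effector, control effector and naive arrays. The thick dark line is the probe set with the highest mean, thin grey lines are the others, and the dotted line is the floor at 43.4. Itga4 (3659 in naive cells against 358 in control effector cells) and Itgb7 dip in the effector arrays, while Cd44 and Itgb1 climb toward the memory array.

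Control effector cells were set against naive cells to follow adhesion genes through Th1 culture. The alpha4 gene Itga4 was 10.2-fold lower in control effector cells, Itgb7 was 3.57-fold lower, Itgae 2.93-fold lower and Itga6 2.47-fold lower. The shared beta1 gene Itgb1 was 1.89-fold higher and Cd44 1.66-fold higher, both short of 2-fold on the brightest probe set. Of the 24 probe sets, 20 could be compared, with 2 at least 2-fold higher and 9 lower. Of all 30163 probe sets compared, 26.7% were past 2-fold, 13% higher and 13.7% lower. The 20 had a median log2 difference of -0.70, against -0.06 over all probe sets and -0.81 over 16 T cell marker probe sets. With the values as deposited, the median of all probe sets above the floor moved by -0.11, and 1 probe set was higher and 9 lower.

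Itga4, whose product decides between the VCAM-1 and MAdCAM-1 receptors by its beta partner, had signals of 3541 in memory, 311 in TOFA, 435 in Rap, 358 in control effector and 3659 in naive cells on its brightest probe set (1436037_at). The memory and naive arrays stood together and far above the 3 effector arrays. The next probe sets gave 8.74-fold (1456498_at) and 4.88-fold (1421194_at) lower signals in control effector than in naive cells. The 2 dim ones, at the floor in control effector cells, gave at least 3.15-fold and at least 1.76-fold lower signals.

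Itgb7 had 1 probe set, with signals of 5635 in memory, 1549.8 in TOFA, 2571 in Rap, 2016 in control effector and 7202 in naive cells. It followed Itga4 in order, highest in naive cells and lowest in TOFA cells, over a smaller range. The difference for Itgb7 was 1.52 less negative than that for Itga4 on the log2 scale in control effector over naive cells.

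Itgae, the partner of Itgb7 at epithelial surfaces, was dim: its brighter probe set (1447541_s_at, a type that can match several genes) had 173 in memory, 66.1 in TOFA, 20.6 in Rap, 60.7 in control effector and 178 in naive cells. The other (1449216_at) had 92.6, 33.6, 44.9, 7.69 and 139 in the same order, at least 3.20-fold lower in control effector than in naive cells. Both placed the memory and naive arrays above the effector arrays, whose signals were too close to the floor to be ordered. With the floor at the 60th percentile, a signal of 150.4, the difference of Itgae between control effector and naive cells was -0.24 on the log2 scale.

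Itga6 had signals of 2384 in memory, 1279 in TOFA, 1875 in Rap, 2000.2 in control effector and 4947 in naive cells. Its second probe set, designed on the same sequence record, had 1056, 677, 985, 1105 and 2890.4. On both, the naive array was highest and the TOFA array lowest. On the memory array the gene was 2.08-fold and 2.74-fold lower than on the naive array, where Itga4 was near its naive signal.

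Itgb1 had signals of 3723 in memory, 1324 in TOFA, 1631 in Rap, 1418 in control effector and 751 in naive cells. Its second probe set (1452545_a_at) had 3243, 1261, 1462, 1204 and 671, the same order but for TOFA and control effector cells. On both, each effector array lay above the naive array and below the memory array. The third (1427771_x_at, whose probes can cross-hybridise) was dim, with 166, 139, 160, 71.4 and 74.6, and differed by log2 -0.06 between control effector and naive cells. The 3 others were under the floor on every array.

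The 2 beta subunits that share the alpha4 chain therefore differed in direction in control effector over naive cells. The log2 difference was 0.92 for Itgb1 and -1.84 for Itgb7, a gap of 2.75, which was 2.50 with the values as deposited. A ratio of this kind shows unequal change and does not say how many receptors of either kind a cell carries.

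Cd44 had signals of 9058 in memory, 2739 in TOFA, 2591 in Rap, 2692 in control effector and 1624 in naive cells on its brightest probe set (1423760_at). The second (1434376_at) had 7302, 1775, 1913, 1939.6 and 1375. The third (1452483_a_at, matching several transcripts of the gene) had 1574, 817, 584, 733 and 228. All 3 placed memory cells highest and naive cells lowest, but control effector over naive was 3.22-fold on the third against 1.66-fold and 1.41-fold on the others. The fourth (1443265_at) was under the floor on every array.

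The LFA-1 genes and Selplg differed little. Itgal had 6112 in memory, 4814 in TOFA, 6896 in Rap, 4349 in control effector and 6007 in naive cells. Its second, dimmer probe set (1425367_at) had 337, 622, 476, 553 and 271. In control effector over naive cells it was 2.04-fold higher where the brighter one was 1.38-fold lower. Both probe sets of Itgal thus went opposite ways, and no direction is given for the gene. Itgb2 had 13864 in memory, 6213 in TOFA, 7598 in Rap, 7346 in control effector and 10148 in naive cells, 1.38-fold lower in control effector than in naive cells. Selplg had 6539 in memory, 4392 in TOFA, 5655 in Rap, 4745 in control effector and 7108 in naive cells, with a log2 difference of -0.58 between control effector and naive cells.

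B cell markers moved with the lower genes: their sum was 2000.2 in control effector and 33248 in naive cells, and the myeloid sum 321 and 6331. Ighm alone was 27391 in naive cells. Of 9 B cell markers 8 were at least 2-fold lower in control effector cells, and of 9 comparable myeloid markers 6. S100a8 (2917), S100a9 (1693) and Lyz2 (811) held most of the naive myeloid sum. Csf1r, Adgre1 and Cd68 stood at 96.3, 66.6 and 64.3 in naive and 84.0, 59.8 and 64.9 in control effector cells. The part of B cells and myeloid cells in the lower Itga4, Itgb7, Itgae and Itga6 signals was not tested.

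**Figure D3:**
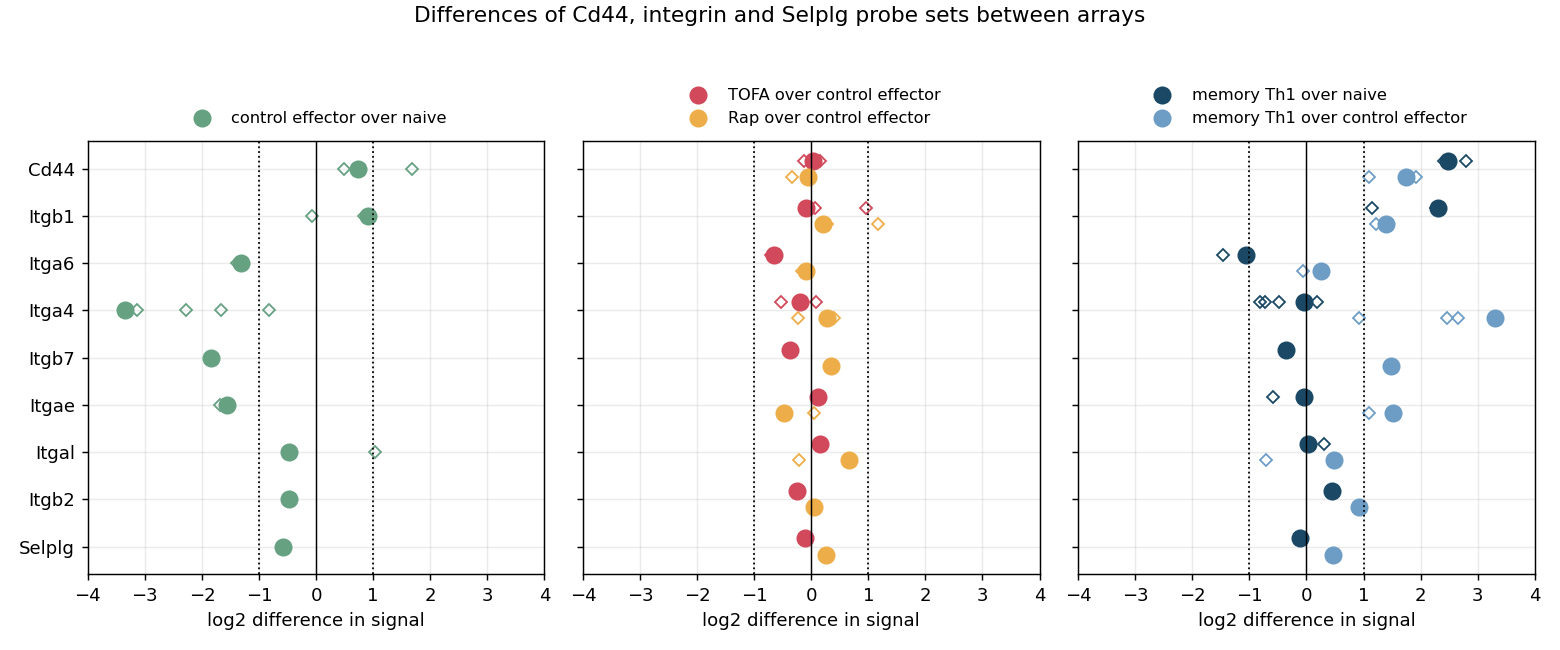
Log2 differences in signal of every comparable probe set, by gene, with large filled circles for the brightest probe set and small open diamonds for the others (some lie behind a circle), and dotted lines at 2-fold. The left panel gives control effector over naive, the middle panel TOFA and Rap over control effector, and the right panel memory Th1 over naive and over control effector. Itga4 reaches -3.35 on the left and 3.31 over control effector on the right, while 1 point of the middle panel, a dim Itgb1 probe set, lies beyond 2-fold.

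TOFA effector cells were set against control effector cells to follow these genes when acetyl-CoA carboxylase was inhibited. None of the 17 probe sets compared was 2-fold apart, while 4.62% of all 29378 probe sets were, 2.43% higher and 2.19% lower. The furthest lower was Itga6, by 1.56-fold and 1.63-fold on its 2 probe sets (log2 -0.65 and -0.71, against an SD between probe sets of 0.33). Itgb7 was 1.30-fold lower (1549.8 against 2016) and Itgb2 1.18-fold lower. Cd44, Selplg, Itgb1 and Itga4 differed by 1.02-fold, 1.08-fold, 1.07-fold and 1.15-fold on their brightest probe sets. The cross-hybridising Itgb1 probe set was 1.94-fold higher (139 against 71.4), which the brighter Itgb1 probe sets did not share. The median over the 17 was -0.10, against -0.00 over all probe sets.

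In Rap over control effector cells, 1 of 18 probe sets was past 2-fold, or 5.56%, against 5.63% of all 29462 probe sets (2.29% higher and 3.34% lower). It was the dim Itgb1 probe set just named (160 against 71.4, 2.25-fold higher), while the 2 bright ones were 1.15-fold and 1.21-fold higher. Itgal was 1.59-fold higher on its brighter probe set (6896 against 4349) and 1.16-fold lower on the other. Itgb7 was 1.28-fold higher, Itga4 1.22-fold higher and Selplg 1.19-fold higher. The median over the 18 was 0.05, against 0.02 over all. The TOFA and Rap comparisons share the control array.

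Set directly against each other, TOFA and Rap effector cells had none of 18 probe sets 2-fold apart, while 4.23% of all 29351 were, 2.59% higher and 1.64% lower. On their brightest probe sets 7 of the 9 genes were lower in TOFA cells, and the 18 probe sets had a median of -0.30, against -0.02 over all. The 7 include Itgb2 at -0.29, inside the SD between probe sets of 0.30. Directions were not counted over all genes, so 7 cannot be called many or few. Itgb7 was the furthest apart, at 1549.8 in TOFA and 2571 in Rap cells (1.66-fold lower, log2 -0.73 against an SD between probe sets of 0.30). Itga6 was 1.47-fold lower and Itgal 1.43-fold lower, while the dim Itgal probe set was 1.31-fold higher. Cd44 was 1.06-fold higher. Itgae was at least 1.52-fold higher on its brighter probe set and lower on the other, by at least 1.04-fold, with Rap and TOFA cells at the floor in turn.

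Memory Th1 cells were compared with naive cells for the genes that set the longer-lived population apart from the one that has not met antigen. Cd44 was 5.58-fold, 5.31-fold and 6.91-fold higher in memory cells on its 3 measurable probe sets, and Itgb1 4.96-fold, 4.83-fold and 2.22-fold higher. Itga6 was 2.08-fold and 2.74-fold lower. Of 20 probe sets compared, 6 were at least 2-fold higher and 2 lower, against 16.3% of all 30008 in either direction, 9.36% higher and 6.97% lower. Itga4, Itgb7, Itgae, Itgal, Itgb2 and Selplg differed by 1.02-fold to 1.37-fold on their brightest probe sets. The gap between Itgb1 and Itgb7 was 2.66 on the log2 scale. It shares the naive array with the gap in control effector over naive cells, and directly between memory and control effector cells the gap was -0.09.

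With the values as deposited, the median of all probe sets above the floor moved by 0.22 toward memory cells in this comparison, and the members' split of 6 higher and 2 lower became 6 and 1. Over all probe sets, the split of 2808 higher and 2092 lower became 3684 and 1235. The brightest Itga6 probe set then fell just short of 2-fold.

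Against control effector cells, memory cells had 12 of 19 probe sets at least 2-fold higher and none lower, while 25.9% of all 30259 were past 2-fold, 12.4% higher and 13.5% lower. Itga4 was 9.89-fold higher, Cd44 3.36-fold, Itgae 2.85-fold, Itgb7 2.80-fold and Itgb1 2.63-fold on the brightest probe sets. Itgb2 was 1.89-fold higher, while Itga6 was 1.19-fold higher on one probe set and 1.05-fold lower on the other. The median over the 19 was 1.21, against -0.05 over all. With the values as deposited, all probe sets above the floor moved by a median of 0.43 toward memory cells, 13 of the probe sets were then past 2-fold higher, and over all probe sets the split of 3760 higher and 4073 lower became 5701 and 2826.

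Markers of other cells moved with the memory array in both comparisons. The myeloid sum was 95025 in memory cells against 6331 in naive and 321 in control effector cells, and the platelet sum 6643 against 167 and 185. Csf1r, the receptor for the macrophage growth factor, had 6232 in memory cells, 84.0 in control effector and 96.3 in naive cells. The B cell sum was 51915 in memory against 33248 in naive and 2000.2 in control effector cells, and the dendritic sum 45045 against 7835 and 2229. Macrophages also express Cd44, Itgb1 and Itgb2. The part of such cells in the higher Cd44 and Itgb1 signals of the memory array, or in its higher Itga4, Itgb7 and Itgae signals over control effector cells, was not tested, and the T cell sum was 56575 in memory, 50830 in control effector and 78737 in naive cells.

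The genes around these receptors were described through 8 lists of 126 genes, 119 of them on the array, counted by probe set. The shares of all probe sets past 2-fold, to be read beside each list's counts, were 26.7% in control effector over naive, 4.62% in TOFA over control, 5.63% in Rap over control, 4.23% in TOFA over Rap, 16.3% in memory over naive and 25.9% in memory over control cells. Marker lists moved in the same comparisons. In control effector over naive cells 0 of 16 T cell marker probe sets were higher and 6 lower (median -0.81), 0 of 19 B cell ones higher and 11 lower (-2.06), and 0 of 11 myeloid ones higher and 7 lower (-1.94). In memory over naive cells 13 of 20 B cell and 12 of 12 myeloid ones were higher, and 6 of 16 T cell ones lower. In memory over control cells 16 of 20 B cell and 12 of 12 myeloid ones were higher. Their part in the list counts that follow was not tested. Of the 19 other integrin subunits, 17 were on the array. In control effector over naive cells 6 of 19 comparable probe sets were higher and 4 lower, 52.6% in all. The alpha3 gene Itga3 was at least 6.29-fold higher (273 against 40.1), but under 2-fold with the floor at the 60th percentile (0.86 on the log2 scale), and Itgb3, the beta3 subunit that pairs with alphav, was 5.51-fold lower (164 against 905). In TOFA over control cells 0 were higher and 2 lower, and in Rap over control cells 0 and 5. Itga3 was 1.59-fold lower in TOFA and 3.19-fold lower in Rap than in control effector cells. Itga7, above the floor on all 5 arrays, was 2.61-fold lower in TOFA (248) and 3.65-fold lower in Rap (177) than in control effector cells (648). Naive cells had 151. In TOFA over Rap cells 1 was higher and 1 lower: Itga3 was 2.01-fold higher (172 against 85.4) and Itgb3 3.17-fold lower (83.2 against 264). Both were under 2-fold as means over probe sets, at 0.34 and -0.73, and with the higher floor, at 0.19 and -0.81. So was Itga3 in Rap over control cells, at -0.81 as a mean and -0.86 with the higher floor. In memory over naive cells 11 were higher and 1 lower, and in memory over control cells 10 and 4. Itgax, the CD11c subunit of dendritic cells and some macrophages, was at least 19.4-fold higher in memory than in naive or control effector cells, and Itga9 13.99-fold higher than in naive cells (1455 against 104). Both genes, like the myeloid and dendritic marker sums, were highest on the memory array. Itgax was under the floor in naive (41.6) and control effector cells (42.6), between which those sums differed.

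Inside-out activation, in which talin and kindlin bind the beta tail and switch the integrin on, was represented by 35 comparable probe sets in control effector over naive cells. Of these 0 were at least 2-fold higher and 15 lower, or 42.9%, while 13.7% of all probe sets were lower. The median was -0.92, against -0.06 over all probe sets, -0.81 over T cell markers and -2.06 over B cell markers. Rasa3, which holds the GTPase Rap1 inactive, was 8.61-fold lower (1109 against 9548). Rasgrp2, which activates Rap1, was 3.79-fold lower (407 against 1540.5). Apbb1ip, the adaptor that brings talin to Rap1, was 4.14-fold lower, and the kinase gene Stk4 2.65-fold lower. The talin gene Tln1 was 1.81-fold lower, Rap1b 1.61-fold lower and the kindlin-3 gene Fermt3 1.15-fold higher (19981 against 17323). None of the 35 was past 2-fold in TOFA or Rap over control cells, or in TOFA over Rap cells, with medians of -0.02, 0.09 and -0.03. In memory over naive cells 2 of 36 were higher and 3 lower, and in memory over control cells 12 and 1.

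The list labelled integrin inhibitors had 1 of 11 probe sets higher and 2 lower in control effector over naive cells, 27.3% against 26.7% of all probe sets. Flna, the filamin that competes with talin for the beta tail, was 3.90-fold lower, Filip1l was 4.22-fold lower, and the adaptor gene Dok1 3.26-fold higher. None passed 2-fold in the TOFA or Rap comparisons. In memory over naive cells 0 were higher and 1 lower, and in memory over control cells 2 and 0.

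The adhesion complex list had 4 of 43 probe sets higher and 6 lower in control effector over naive cells, 23.3% against 26.7% of all. Actn1, which links integrins to actin, was 7.30-fold lower (1425 against 10392), Bcar1, the scaffold p130Cas, 5.44-fold higher (352 against 64.8), and the tetraspanin gene Cd81 3.91-fold higher. Bcar1 was 2.56-fold lower in TOFA (138) and 3.22-fold lower in Rap (109) than in control effector cells. In all, 0 of 44 probe sets were higher and 2 lower in TOFA over control cells, 1 and 1 of 43 in Rap over control cells, and 1 and 0 in TOFA over Rap cells. Memory over naive cells had 9 higher and 3 lower, with Parvb at least 9.04-fold higher, and in memory over control cells 12 and 0.

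Enzymes that put selectin-binding sugars on PSGL-1 and CD44 differed while Selplg did not pass 2-fold. In control effector over naive cells 7 of 25 probe sets were higher and 4 lower, 44% against 26.7% of all. Fut7, which adds the fucose that selectins need, was 4.80-fold higher (297 against 61.8), and Fut4, another fucosyltransferase, 3.05-fold higher (135 against 44.2). Gcnt1, which builds the branched O-glycan core, was 2.05-fold higher (172 against 83.8). St3gal6, a sialyltransferase, was 6.80-fold lower (64.6 against 439). St3gal4, another sialyltransferase, was 3.65-fold higher (1129 against 309), while St3gal1 and St3gal3 stayed under 2-fold on their brightest probe sets. Fut7 fell under 2-fold with the higher floor (0.98), Fut4 as a mean over its probe sets (0.81) and Gcnt1 with the higher floor (0.19), an added constant (0.76) or the values as deposited (0.87). Memory over naive cells had 4 of 23 higher and 1 lower, with Gcnt1 4.41-fold, Fut4 4.57-fold and Fut7 1.22-fold higher, and Fut4 at 0.42 on the log2 scale with the higher floor. In memory over control cells 5 were higher and 4 lower, with Fut7 3.92-fold lower, or -0.98 on the log2 scale with the higher floor. In TOFA and Rap over control cells 0 were higher and 1 lower in each, and in TOFA over Rap cells none passed 2-fold. Fut7 stood at 215 in TOFA, 310 in Rap and 297 in control effector cells.

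Among linkers, proteases and hyaluronan enzymes of CD44, 9 of 28 probe sets were higher and 2 lower in control effector over naive cells, 39.3% against 26.7% of all. Probe sets of 1 gene are counted apart here: by brightest probe set, 2 of 11 genes were higher and 1 lower. The 2 higher genes, Hmmr and Nf2, have 5 and 4 probe sets on the array. Hmmr, a hyaluronan-binding protein that is also a mitotic spindle factor, was 45.9-fold higher (4285 against 93.4). Nf2, the merlin tumour suppressor that binds CD44, was 2.26-fold higher. Msn, the linker moesin, was 1.89-fold lower and Adam10, the protease that sheds CD44, 1.28-fold lower. In TOFA over control cells 1 was higher and 0 lower, in Rap over control cells none passed 2-fold, and in TOFA over Rap cells 1 was higher. Memory over naive cells had 2 higher and 2 lower, with Hyal2, a hyaluronidase, 2.74-fold higher and the protease gene Mmp14 2.34-fold higher, or 0.43 on the log2 scale as a mean over its probe sets. In memory over control cells 3 were higher and 8 lower. By brightest probe set, 3 of 11 genes were higher and 1, Hmmr, was lower (35.4-fold).

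The ligands had 7 of 15 probe sets higher and 2 lower in control effector over naive cells, 60% against 26.7% of all, with the laminin gene Lama5 5.87-fold higher (292 against 49.7) and Fn1, fibronectin, at least 3.35-fold lower. Lama5 was under 2-fold with the higher floor (0.96) and Fn1 as a mean over its probe sets (-0.87). In TOFA over control cells 3 of 16 were higher and 1 lower, in Rap over control cells 4 and 0 (25% in each), and in TOFA over Rap cells none passed 2-fold. By brightest probe set, 1 of 10 genes was higher in TOFA and 2 of 10 in Rap over control cells, with 0 lower in either. The P-selectin gene Selp was 2.51-fold higher in TOFA (808 against 322) and 3.91-fold in Rap (1262). Icam2 was 2.15-fold higher in Rap cells. Memory over naive cells had 7 of 17 higher and 0 lower. Vcam1, the VLA-4 ligand found on endothelium and red pulp macrophages, was at least 199-fold higher in memory cells (8620 against 27.0 in naive cells, under the floor). The junction protein gene F11r was 10.9-fold higher. In memory over control cells 8 were higher and 5 lower. Vcam1 and F11r, like the myeloid sum of 95025, were highest on the memory array. In naive and control effector cells Vcam1 was under the floor and F11r at 54.4 and 52.3, while the myeloid sum was 6331 and 321. Selp and Lama5 were lower in memory (72.4 and 68.7) than in control effector cells (322 and 292).

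Of the transcription factor and signalling genes with published links to these receptors, 3 of 31 probe sets were higher and 11 lower in control effector over naive cells, 45.2% against 26.7% of all. Tbx21, which encodes T-bet, was 16.8-fold higher (2036 against 121), and Klf2 15.2-fold lower (934 against 14239). The TGF-beta receptor gene Tgfbr2 was 5.15-fold lower on its brightest probe set, and -0.95 on the log2 scale as a mean over its probe sets. Smad7, an inhibitor of that pathway, was 5.52-fold lower. TGF-beta signalling is known to induce Itgae, but any part of it in the Itgae signals here was not tested. In TOFA over control cells 0 were higher and 2 lower, in Rap over control cells 0 and 1, and in TOFA over Rap cells none passed 2-fold. In memory over naive cells 1 was higher and 9 lower, and in memory over control cells 5 and 5.

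**Figure D4:**
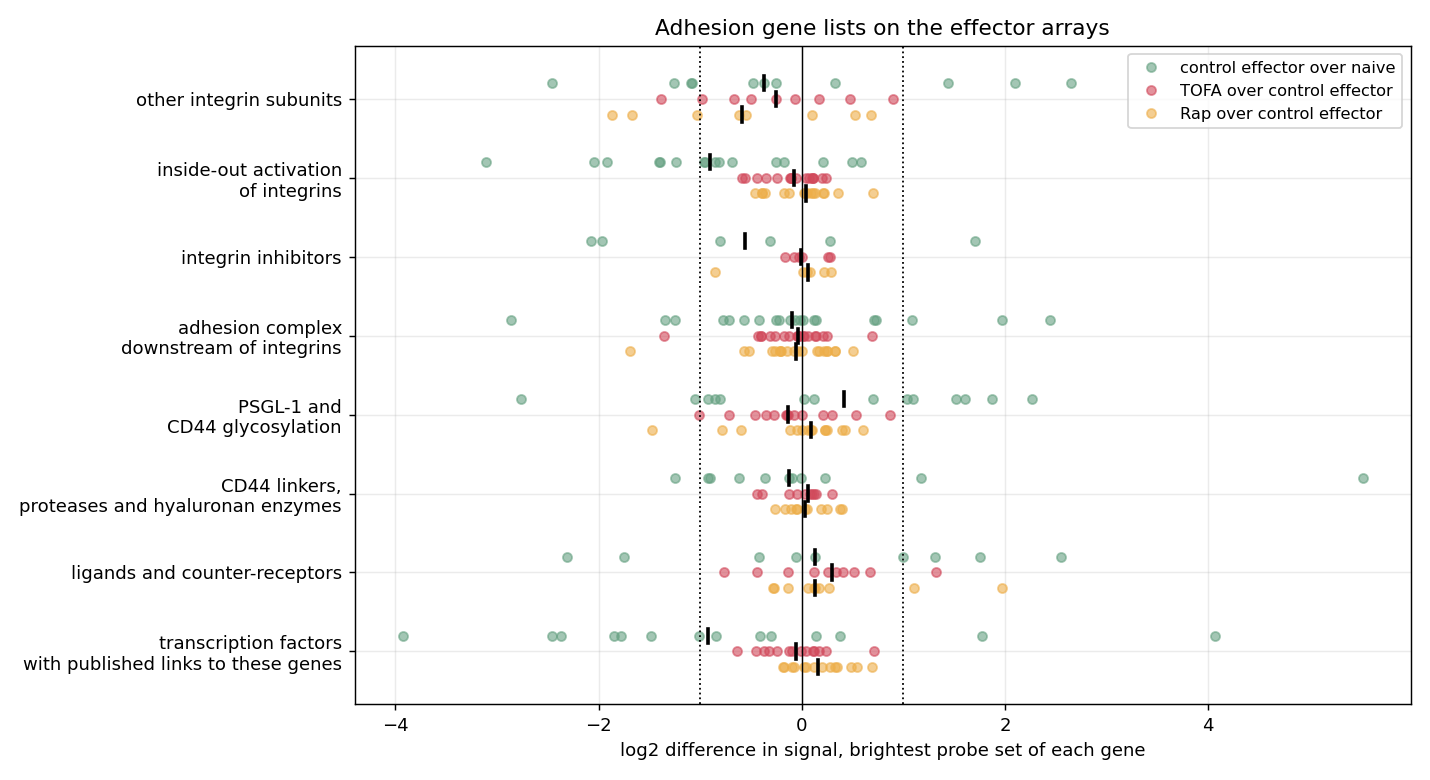
Log2 differences of the brightest probe set of each gene in 8 adhesion lists, for control effector over naive, TOFA over control effector and Rap over control effector. Black ticks are list medians and dotted lines mark 2-fold. Differences between control effector and naive cells reach 5.52 (Hmmr), while most TOFA and Rap points lie between the dotted lines.

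Genes with the most similar profiles were found by the root mean square difference of log2 signals centred over the 5 arrays, among 9896 genes with a signal over 150.4 on at least 1 array, predicted genes left out. This is a description over 5 points. Nearest to Cd44 were Tmem65 (0.078), Lamp2 (0.090) and Nid2 (0.11), and to Itgb1 Dock5 (0.11), Tmem65 (0.13) and Nr2f6 (0.16). Cd44 and Itgb1 were 0.21 apart, with 12 genes nearer to Cd44 than Itgb1 was. Nearest to Itga4 were Egr3 (0.15), Sidt1 (0.26) and Nsg2 (0.27), and to Itgb7 Crebrf (0.099), Sun2 (0.13) and Adcy7 (0.14). Itga4 and Itgb7 were 0.81 apart, with 221 genes nearer to Itga4 than Itgb7 was. Nearest to Itga6 were Nlrc3 (0.10), Tecpr1 (0.12) and Plekhg2 (0.12), and to Itgae Aldh6a1 (0.071), Ctse (0.090) and Tmem156 (0.10). The flatter genes had nearer neighbours: Mknk2 (0.019), Zfp595 (0.028) and Med13 (0.041) for Selplg, Cyhr1 (0.046), Tab3 (0.055) and Cabin1 (0.060) for Itgal, and Klhl5 (0.044), Camta2 (0.055) and C2cd2 (0.080) for Itgb2.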

How the data were processed

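Per the labels, total RNA of 5 samples was hybridised to 1 Affymetrix mouse array each. Per the submitters' processing notes, the authors used GCOS and Affymetrix Expression Console, with no version. The signal algorithm is not stated in these sources. The authors deposited linear intensity values, with a mean of 500.003 on every array after trimming 2%.

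After 64 control probe sets were set aside, 45037 were quantile normalized (numpy 2.4.6, pandas 2.3.3), since array medians differed from 63.1 to 99.5, and signals were floored at 43.4. Probe sets with 1 symbol in the platform's 2016 annotation were named. All 9 genes matched their Entrez identifier in RefSeq's table. Log2 differences were taken for 6 comparisons. The steps were tested on simulated data.

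Named genes were the 9 members, up to 4 genes past 2-fold with the largest difference in each list, 8 fixed genes (Tln1, Fermt3, Rap1b, Fut7, Gcnt1, Msn, Adam10 and Tbx21), and the 3 nearest profiles of each member. Cd4, Csf1r, the other single markers given and the marker sums describe the cells. Members, lists and motifs were chosen with earlier results of these data known. The alternatives were the values as deposited, other floors, no floor, no _x_at or _s_at probe sets, a 1.5-fold threshold, an added constant and the mean of all probe sets. Itga7, the St3gal genes other than St3gal6, Selp and Icam2 were named outside the rule above, and the alternatives were not tried for them.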

Additional observations from a re-analysis of the deposited data

How the results depend on the processing

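No group had a replicate, so no replicate could be left out and no test was made. No paired analysis was possible because each group has 1 array. The counts of Cd44, integrin and Selplg probe sets past 2-fold in control effector over naive, memory over naive and memory over control effector stayed within 1.5 times under all 7 alternatives tried for them, at 8 to 15, 7 to 11 and 9 to 15. The shares of all probe sets ranged over 23.6% to 48.9%, 12.9% to 36.4% and 23.1% to 46.6% in these comparisons, each highest at 1.5-fold. A steady count is therefore to be read beside a share that moved. The counts near 0 moved. For TOFA over control effector the count of 0 became 2 with the floor at the 20th percentile, 5 with no floor and 3 at 1.5-fold. For Rap over control effector the count of 1 became 4 with the lower floor, 7 with no floor and 2 at 1.5-fold, and 0 with the floor at the 60th percentile, without _x_at and _s_at probe sets or with an added constant. For TOFA over Rap effector the count of 0 became 3 with the lower floor, 6 with no floor and 2 at 1.5-fold. Lower floors admit dim signals, and the share of all probe sets past the threshold moved too. In TOFA over control effector it was 4.62%, and became 15.7% with the lower floor, 25.5% with no floor and 18.0% at 1.5-fold. The same settings gave 17.1%, 27.1% and 20.03% in Rap over control effector and 15.4%, 25.4% and 17.0% in TOFA over Rap effector. No difference past 2-fold of a gene for which the alternatives were tried changed sign under any of them. As a mean over all 6 probe sets, 3 of them under the floor, Itgb1 differed by 0.96 in memory over naive and 0.67 in memory over control effector, under 2-fold. Itgae differed by 0.20 in memory over control effector with the floor at the 60th percentile, and by -1.56 in Rap over control effector with no floor. Itgal as a mean of its probe sets differed by 0.28 in control effector over naive and -0.11 in memory over control effector, against -0.47 and 0.49 on its brightest.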
